A study of Homo sapiens with 8 samples.

Results

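NB-39-nu is an established human neuroblastoma cell line, and the account below follows its response to knockdown of the Polycomb gene BMI1. It rests on 2 of the 8 arrays of the study, the 2 whose titles name NB-39-nu. They were picked by title, with earlier results of these data known. The control array (shCont) came from cells infected with the empty lentiviral vector pLKO.1. The knockdown array (shBMI1-1) came from cells infected with a lentivirus that expresses 1 hairpin directed at BMI1. The other 6 arrays hold the same pair of conditions in 3 further neuroblastoma lines, whose values are given throughout in the order SH-SY5Y, then SK-N-BE, then SK-N-DZ. Lentiviral infection and culture in RPMI1640 with serum were common to all groups, and the labels name no DNA-damaging agent. RNA was taken from day 8 to day 14 after infection, and which day applies to either NB-39-nu sample is not stated. The design text gives the question as which genes respond when BMI1 is lost. With 1 array a side there is no replicate of NB-39-nu, so its ratios carry no p-value.

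BMI1 is a subunit of Polycomb repressive complex 1 (PRC1), in which it pairs with the RING1 and RNF2 ubiquitin ligases to mark histone H2A at silenced genes. In many cell types BMI1 sustains proliferation and represses inhibitors of the cell cycle, and genes of development and differentiation are classical Polycomb targets. Neuroblastoma arises from the embryonic precursors of sympathetic neurons and adrenal chromaffin cells, so its cells can carry programs of neurons, of hormone-secreting cells and of proliferating precursors side by side.

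Each array reported linear signal intensities for probe sets, which are groups of short probes that read one transcript near its end. For each gene the probe set with the greatest average signal over the 8 arrays was used, and the change is the log2 ratio of knockdown over control after adding 8 to both signals. That addition understates the change of dim genes. Signals of different genes come from different probes and cannot be set against each other. A gene was called bright if its signal reached 200 in at least 1 of the 2 NB-39-nu arrays. Of 19776 genes, 9972 were bright, 9112 of them in both arrays, 644 only after knockdown and 216 only in the control. Just inside that limit lay ATP5MC2P1, whose higher signal was 200.1.

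More genes were at least 2-fold higher after knockdown than at least 2-fold lower. Of the 9972 bright genes, 535 (5.37%) were at least 2-fold higher and 202 (2.03%) at least 2-fold lower. At least 4-fold higher were 104 genes and at least 4-fold lower 12. At 8-fold the counts were 30 and 1. The median log2 ratio was 0.03, with quartiles of -0.25 and 0.35, and 53.4% of bright genes were above 0. The counts and medians of gene groups below are to be read against these shares, and they hold members that are bright only because they are high after knockdown. The excess of higher genes lay mostly among genes that were dim in the control. Of the 535 higher genes, 296 were bright only after knockdown, and among genes bright in both arrays 239 were higher and 138 lower. The share past 2-fold depended on brightness. Among the 2688 genes with a mean signal under 500, 12.5% were at least 2-fold higher and 3.16% lower, and the SD of log2 ratios over genes was 0.76. Among the 766 genes with a mean of 8000 or more, 8 were higher and 5 lower, with an SD of 0.37. RUSC2 (1.00) lay just inside and GATAD2B (1.00 after rounding) just outside the 2-fold limit for higher genes, and PRIM1 (-1.0) and APOE (-1.0 after rounding) for lower genes.

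**Figure D1:**
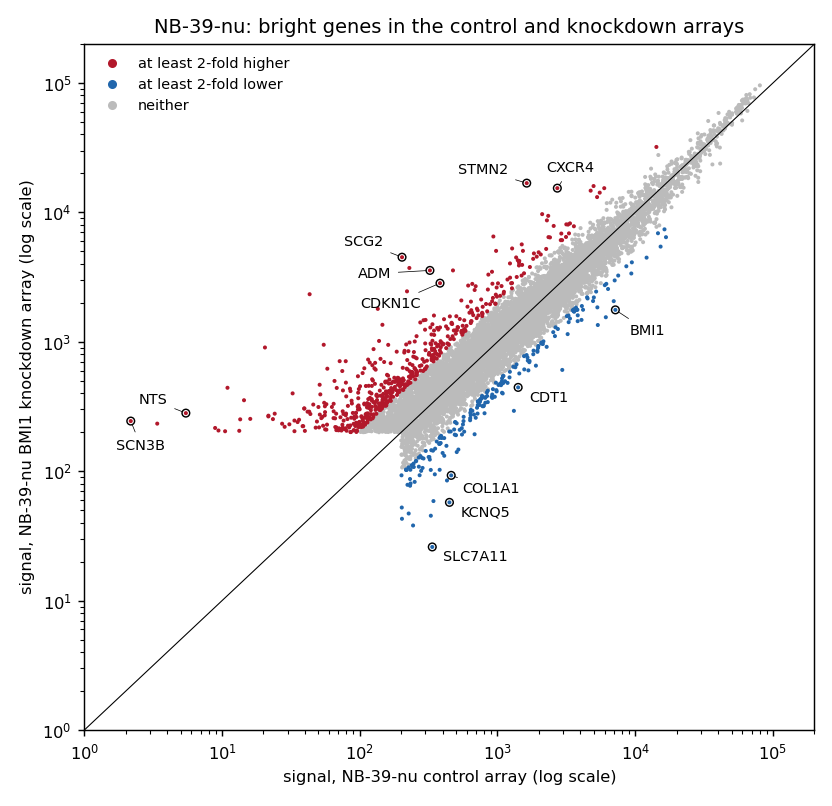
Signal of each bright gene in the NB-39-nu control array (horizontal axis, log scale) and knockdown array (vertical axis, log scale), 1 point a gene, with the diagonal marking equal signals. The 535 genes at least 2-fold higher (red) spread far to the left, where control signals were under 200, while the 202 lower genes (blue) stay closer to the diagonal.

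The targeted gene was strongly reduced. BMI1 read 7175 in the control array and 1765 in the knockdown array, a log2 ratio of -2.02 that left 24.6% of the control signal. The other lines kept 65.5%, 65.0% and 39.4%. The only BMI1 probe set also matches a read-through transcript from the neighbouring gene COMMD3, whose own probe set read 4946 and 5309 (0.10). BMI1 and SCML1, a further Polycomb protein (3359 to 1512, -1.15), were the PRC1 genes at least 2-fold lower, among 18 bright ones with a median of -0.11. The other SCML1 probe set was at -0.51. The BMI1 paralogue PCGF1 was at 0.63 (207 to 325). RING1, an enzymatic partner of BMI1, was at 0.35 (1002 to 1276) and PCGF3 at 0.32 (1415 to 1763), each with a further bright probe set below 0 (-0.06 and -0.36). PRC2 is the Polycomb complex with histone methyltransferase activity, and none of its 12 bright genes was past 2-fold. Its catalytic subunit EZH2 was lowest at -0.92 (6200 to 3278) and its paralogue EZH1 was at 0.33 (697 to 877) in one probe set and -0.19 in the other.

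The arrays differed in median signal and RNA controls. Both NB-39-nu arrays had been scaled to a mean of 500 after trimming, like the other 6. Their median signals were 69.9 for the control and 79.5 for the knockdown. In the other lines the control and knockdown medians were 75.2 and 78.5, 70.1 and 70.3, then 79.8 and 76.5. The median log2 ratio of bright NB-39-nu genes was 0.21 at a mean signal under 500 and -0.02 at 8000 or more. The ratio of the end-proximal to the start-proximal ACTB probe set, a measure of RNA integrity, was 6.01 in the control and 4.82 after knockdown, against 3.81 to 5.25 elsewhere, while for GAPDH it was 0.984 and 0.975, against 1.03 to 1.12. The part of these differences in the results was not tested.

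Where a gene had several bright probe sets, they gave a check on direction that does not need a second culture, although all probe sets of an array share the same RNA. Of 4310 genes with at least 2 bright probe sets, 2492 (57.8%) had all of them on the same side of 0. In 70 genes (1.62%) all were at least 2-fold higher and in 15 (0.348%) all were at least 2-fold lower. Among genes whose main probe set was at least 2-fold higher, 151 had at least 2 bright probe sets, and these pointed the same way in 137 (90.7%). For the lower genes this was 66 of 75 (88.0%). Size agreed less often than direction: all bright probe sets were past 2-fold in 70 of those 151 higher genes and 15 of those 75 lower genes. The pooled SD between bright probe sets of a gene was 0.41 on the log2 scale. Over the 4308 genes with a bright second probe set, the log2 ratios of the pair had a Pearson r of 0.54 and a Spearman rho of 0.48, a description across genes within 1 pair of arrays.

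**Figure D2:**
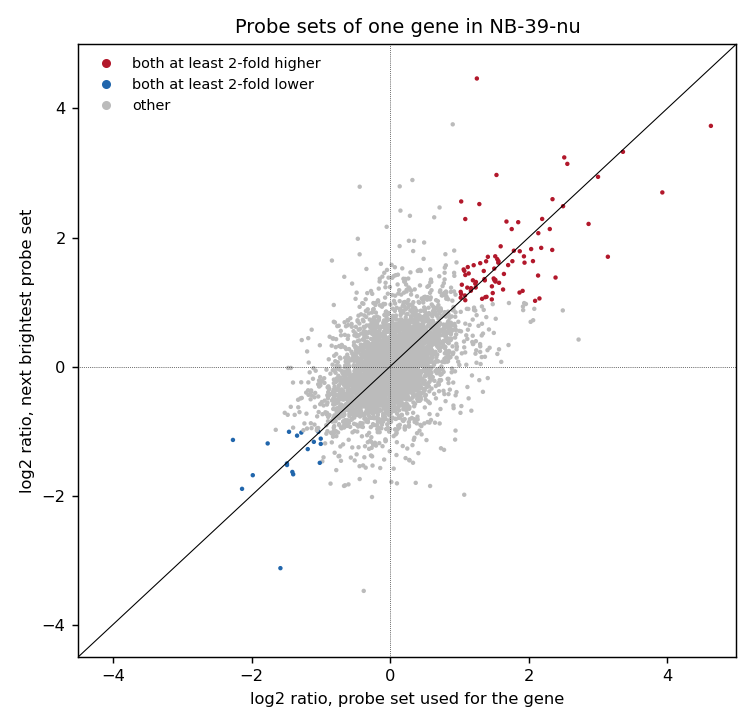
Log2 ratio of NB-39-nu knockdown over control for the probe set used for each gene (horizontal axis) and for the gene's next brightest probe set (vertical axis), 1 point for each of 4308 genes with both bright. Red and blue points mark genes with both probe sets at least 2-fold higher or lower, and most genes past 2-fold on the horizontal axis lie on the same side of 0 on the vertical axis (210 of 226).

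The genes with the firmest agreement included neuronal, secreted and cell cycle genes. STMN2, a neuronal protein that destabilises microtubules, read 1630 and 16825, and its probe sets gave 3.33 and 3.36. CXCR4, a chemokine receptor of migrating cells, read 2719 and 15387, with probe sets between 2.44 and 2.50. In 4 probe sets CDKN1C, which encodes the cell cycle inhibitor p57, ran from 1.88 to 2.87 (383 to 2838 in the main one). LSAMP, a neuronal adhesion protein, ran from 1.68 to 2.61 over 5 probe sets, and ALCAM, an adhesion protein of axons, read 2110 and 9691 with probe sets at 2.20 and 2.29. Lower in all their probe sets were DLAT, a subunit of the pyruvate dehydrogenase complex (5350 to 1348, -1.98 to -1.20 over 3), RPN2, a subunit of the oligosaccharyltransferase (15282 to 5440, -1.61 to -1.49 over 3), and SGPP1, a phosphatase of sphingosine 1-phosphate (1315 to 293, -2.14 and -1.90). In 6 cases a gene had bright probe sets past 2-fold in opposite directions, among them ZFX (-1.18 to 1.31), DCAF8 (-1.34 to 1.69), HELQ (-1.20 to 1.52), TNRC18 (-1.99 to 1.07) and TBC1D16 (-1.44 to 1.24), and no direction is given for these. RAP1A is likewise uncertain, at -1.47 in its main probe set (9365 to 3372) and -0.02 in the other.

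The NB-39-nu pair differed more than the pair of any other line under the same rule. At least 2-fold higher were 68 bright genes of SH-SY5Y, and 83 were lower. The counts were 77 and 40 in SK-N-BE, then 76 and 85 in SK-N-DZ, each among that line's own bright genes. The SD of log2 ratios over bright genes was 0.59 in NB-39-nu and 0.36, 0.34 and 0.35 in the others. The 535 higher genes of NB-39-nu had medians of -0.05, 0.18 and 0.08 in the other lines. Of these genes 91 were above 0 in all 3, against 1729 of the 9972 bright genes. At least 2-fold higher in 1 or more other lines were 94, against 435 of all bright genes. At least 2-fold lower in 1 or more were 75, against 379. Of all bright genes 0 were at least 2-fold higher in all 3 other lines. The 202 lower genes had medians of -0.06, -0.29 and -0.17. Of these, 70 were below 0 in all 3 other lines, against 1283 of the 9972 bright genes.

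Whether a change in NB-39-nu differed from that of the other lines was tested for 9888 genes with a limma model that holds each line's level and compares the NB-39-nu ratio with the mean ratio of the other 3. The spread comes from those 3 lines, and the single NB-39-nu ratio is assumed to vary like theirs. That assumption was not tested. The SD over bright genes given above was wider in NB-39-nu, and the p-values would be too small if its ratios varied more. The labels name no separate cultures within a line, so the p-values measure the spread between lines. At a Benjamini-Hochberg adjusted p under 0.05, 67 genes (0.678%) were higher in NB-39-nu than in the other lines and 14 (0.142%) were lower. At an unadjusted p under 0.05 there were 786 and 715. Of the 81 genes, 78 were at least 2-fold changed in NB-39-nu, 64 were bright and 40 bright in both arrays. Of the 24 with at least 2 bright probe sets, 22 had all of them in the gene's direction. The count rests on the spread estimate. Without the mean-variance trend 0 genes passed (lowest adjusted p 0.0833, 1306 at an unadjusted p under 0.05). Without SH-SY5Y 31 genes passed, without SK-N-BE 203 and without SK-N-DZ 321. In all 3 of these fits 28 of the 81 genes passed. BMI1 itself did not pass, with a difference of -1.16 (SE 0.30, limma adjusted p = 0.132), and was lower in every line.

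**Figure D3:**
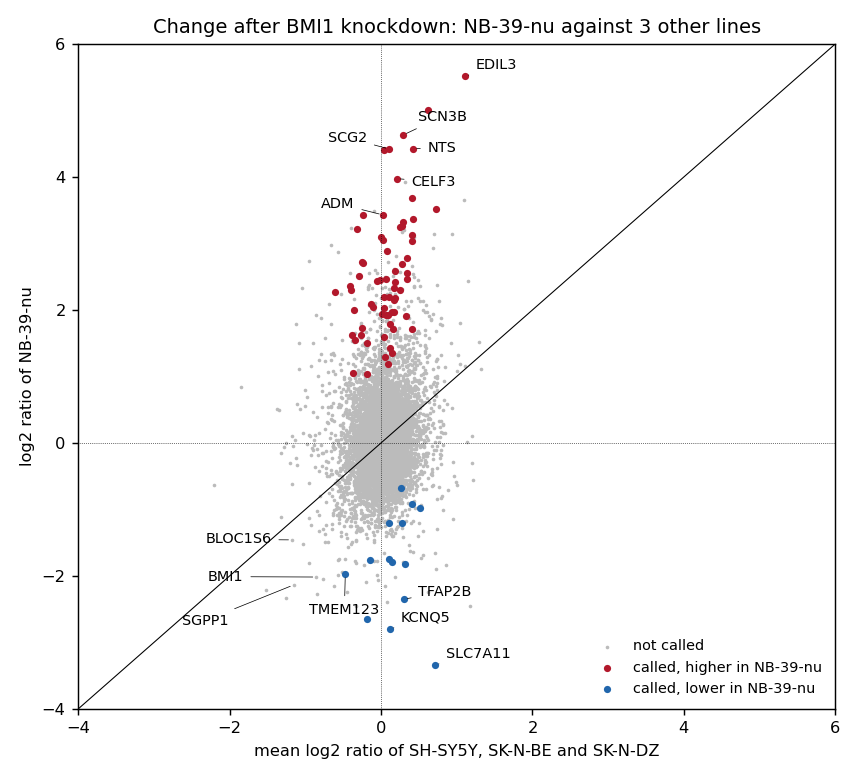
Log2 ratio of NB-39-nu (vertical axis) and mean log2 ratio of the other 3 lines (horizontal axis) for the 9888 genes tested, with the diagonal marking equal changes. The 67 genes higher in NB-39-nu (red) and 14 lower (blue) passed the limma test, and most lie near 0 on the horizontal axis, while BMI1, SGPP1 and BLOC1S6 lie below 0 on both.

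Defining genes of the lineage were checked first. GATA3 (25747 and 25929), PHOX2A (11847 and 10656) and ISL1 (966 and 1966), transcription factors of the sympathetic lineage, were bright in both arrays, as was HAND2 (370 and 473). MYCN, the oncogene amplified in many neuroblastomas, read 59743 and 51340 (-0.22), although a dimmer bright probe set gave -1.78 and the mean of all probe sets 0.09, while MYC read 1.90 and 6.81. Tyrosine hydroxylase (TH), the first enzyme of catecholamine synthesis, was not bright (4.69 and 5.16). GATA3, MYC and TH were looked up after their values were seen. Of the markers of Schwann and glial cells, leukocytes, endothelial and epithelial cells, none was bright in either array. Of 12 fibroblast markers 7 were bright, and their summed signal over all 12 was 8240 in the control and 18197 after knockdown, against 1273 to 20682 in the other lines. LUM, a matrix proteoglycan (5522 to 14204), made up most of that sum, with COL1A1 going the other way (461 to 92.9). COL1A2, COL3A1 and FAP were under 200 in both arrays. The part of these genes in other results was not tested. Fewer cells of a type and less RNA per cell cannot be told apart in these arrays.

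Genes of the regulated secretory pathway were among the highest. Granins are the core proteins of dense-core granules, which store hormones and neuropeptides. SCG2, which encodes secretogranin II, read 203 in the control and 4505 after knockdown, a log2 ratio of 4.42. Elsewhere SCG2 was at -0.29, 0.88 and -0.27, and the difference passed (4.31, SE 0.43, limma adjusted p = 0.0060). It was the highest of all genes bright in both arrays. Of 8 bright genes for granins and the processing of prohormones, 5 were at least 2-fold higher, against 5.37% of all bright genes. At least 2-fold lower were 0, against 2.03%, and the median was 1.04. CHGA read 3304 and 6885 (1.06), CHGB 196 and 513 (1.35) and VGF, a granin-like neuropeptide precursor, 155 and 321 (1.01). The carboxypeptidase CPE, which trims prohormones, read 1838 and 4818 (1.39) but was also at 2.38 in SK-N-BE. Of 10 tested genes of this list 2 passed the limma test on the higher side, against 0.678% of all genes. Apart from SCG2 this was SCG3, which was not bright (4.37 to 72.1) and was named after its values were seen. It no longer passed without SH-SY5Y (limma adjusted p = 0.0764). The list's medians in the other lines were -0.13, 0.28 and -0.10.

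Promoters of CHGA and VGF are shown because both carry the cAMP response element, an 8-letter site long studied in granin genes. The sequences are from RefSeq (GRCh38.p14), cover the 120 bases before the start site, and run 5′ to 3′ on the gene's strand, with the element TGACGTCA in capitals. CHGA lies at chr14:92923030-92923149 (plus strand) with the element starting 54 bases before the start site, and VGF at chr7:101165570-101165689 (minus strand) with it 79 bases before.
CHGA: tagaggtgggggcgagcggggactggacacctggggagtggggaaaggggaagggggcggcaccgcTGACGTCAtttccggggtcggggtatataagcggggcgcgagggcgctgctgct
VGF: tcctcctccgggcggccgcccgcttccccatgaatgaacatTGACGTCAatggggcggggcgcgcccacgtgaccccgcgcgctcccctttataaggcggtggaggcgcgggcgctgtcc
Over windows of 300 bases (250 before to 50 after a start site) and both strands, TGACGTCA was found for 2 of the 6 bright granin and processing genes with a promoter in the table. It was found for 4.03% of 8312 bright genes, 2.68% of 411 genes at least 2-fold higher and 3.23% of 155 at least 2-fold lower. These shares are descriptions, and a match is a string of letters and not a measured site. SCG2 and CHGB had no promoter in the table, and CPE had no match.

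Neuropeptide genes did not move together, with 2 of 6 bright genes at least 2-fold higher and 1 lower. Their median of 0.19 became -0.04 over the 3 genes bright in both arrays. NTS, which encodes neurotensin, read 5.47 and 281 (4.42), and its ratios elsewhere were -0.09, 1.20 and 0.15 (difference 4.00, SE 0.68, limma adjusted p = 0.0407). Without SH-SY5Y it no longer passed (limma adjusted p = 0.156). NPPB, a natriuretic peptide, read 55.2 and 338 (2.45), NMU 410 and 180 (-1.15), and the bright galanin gene GAL 29828 and 28949 (-0.04). KISS1R, the receptor of the kisspeptin peptides, read 220 and 2455 (3.43) and was between -0.42 and -0.00 in the other lines (difference 3.67, SE 0.48, limma adjusted p = 0.0130).

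The cytoskeleton of neurons showed the largest number of genes past the test. Of 20 bright genes for neurofilaments, stathmins and related proteins, 10 were at least 2-fold higher, 1 was lower and 17 were above 0. The shares of all bright genes were 5.37%, 2.03% and 53.4%, and the list's median was 0.93. Over the 16 bright in both arrays the median was 0.55, and NEFM, NEFL, CRMP1 and DPYSL3 reached 200 only after knockdown. In the other lines the medians were 0.05, 0.07 and 0.11. Of 22 tested, 9 were higher by limma, against 0.678% of all genes. NEFM, the medium neurofilament chain, read 10.5 and 204 (3.51), and NEFL, the light chain, 35.4 and 240 (2.51 and 3.24 in its probe sets). NEFH, the heavy chain, was bright in both arrays and did not follow, at -0.19 (1525 to 1332). The other intermediate filaments of neurons were INA (346 to 1221, 1.79) and peripherin, PRPH (2559 to 7858, 1.62). STMN3 read 1500 and 5658 (1.91), whereas STMN1, the stathmin of proliferating cells, read 3602 and 1709 (-1.07). CRMP1, which relays axon guidance signals, read 115 and 729 (2.58), GAP43, a growth cone protein, 645 and 1755 (1.43), and DCX, a microtubule protein of migrating neurons, 409 and 1495 (1.85). By limma the differences were 2.79 for NEFM (adjusted p = 0.00745), 2.80 for NEFL (0.00899), 2.40 for CRMP1 (0.0060), 1.58 for STMN3 (0.00899), 1.67 for INA (0.0171), 2.94 for STMN2 (0.0275), 2.00 for PRPH (0.0301) and 1.32 for GAP43 (0.042). Without SH-SY5Y, INA (limma adjusted p = 0.0576), STMN2 (0.0656), PRPH (0.0806) and GAP43 (0.0959) no longer passed, and NEFL was lost without SK-N-BE (0.0627). DCX did not pass (limma adjusted p = 0.393), and it was at -0.45, 1.07 and 1.37 elsewhere. MAP2, a dendrite protein that was not bright (26.3 to 164), also passed and was named after its values were seen. RNA-integrity controls moved between the arrays as given above, and their part here was not tested.

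Ion channels and receptors of neurons gave a mixed picture. Among 11 bright voltage-gated channel genes, 5 were at least 2-fold higher and 1 lower, against 5.37% and 2.03% of all bright genes. The median was 0.96. Only 6 of these genes were bright in both arrays, and their median was 0.45. SCN3B, an auxiliary sodium channel subunit, read 2.18 and 244 (4.63, and 3.73 in its other probe set). CACNA1B, the pore subunit of the N-type calcium channel of nerve endings, read 58.2 and 620 (3.25). KCNQ5, a potassium channel that dampens firing, went the other way, at 448 and 57.5 (-2.80), with ratios between -0.22 and 0.37 elsewhere. All of these passed the limma test, with differences of 4.34 (adjusted p = 0.00892), 3.0 (0.033) and -2.92 (0.0127), but CACNA1B was lost without SH-SY5Y (limma adjusted p = 0.0936). Of 9 bright neurotransmitter receptor genes, GRIK2, a kainate receptor subunit, was the only one past 2-fold. It read 3.39 and 233 (4.41, limma adjusted p = 0.0197, and 0.113 without SH-SY5Y). The bright nicotinic receptor gene CHRNA3 read 8378 and 8693 (0.05), with further probe sets at -0.13 and 0.32. The median of these receptors was 0.05, and -0.02 over the 6 bright in both arrays.

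The machinery of synaptic vesicles mostly stayed near 0. Its 15 bright genes had a median of 0.07, with 2 at least 2-fold higher and 1 lower. RAB3B, a GTPase of vesicle release, read 226 and 847 (1.87, and up to 3.04 in its other probe sets), SYT11 654 and 1681 (1.35), and RAB27B 742 and 325 (-1.17). SYT1, the calcium sensor of release, read 3517 and 5126 (0.54) and SV2A 1006 and 774 (-0.37).

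Guidance genes of growing axons were higher in part. Of 24 bright ones, 8 were at least 2-fold higher, 0 lower and 18 above 0, against 5.37%, 2.03% and 53.4% of all bright genes. The median was 0.41, against -0.08, -0.05 and -0.36 in the other lines. Over the 18 bright in both arrays the median was 0.18, and ROBO2, EPHA5, PLXNA4 and EFNA1 were under 200 in the control. ROBO2, a receptor of SLIT proteins, read 123 and 660 (2.34 and 2.59 in its probe sets), while its relative ROBO1 read 3300 and 2318 (-0.51). EPHA5 (64.6 to 332, 2.23) and EPHA7 (1113 to 2435, 1.12) encode ephrin receptors, PLXNA4 (108 to 328, 1.54) and PLXNA2 (330 to 786, 1.23) semaphorin receptors, and EFNA1 (113 to 336, 1.50) an ephrin. PLXNA2 was at 0.20 in its other probe set, and EPHA7 at 0.57 in its next brightest one. L1CAM, an adhesion protein of axons, read 586 and 1216 (1.04) and was the only one of 27 tested to pass (difference 1.23, limma adjusted p = 0.042, and 0.0959 without SH-SY5Y).

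RNA-binding proteins of neurons and transcription factors of differentiation were next. CELF3, a splicing regulator of the brain, read 229 and 3721 (3.97) and passed (difference 3.77, SE 0.41, limma adjusted p = 0.00745). ELAVL4 (68.1 to 440, 2.56 and 3.14) and ELAVL3 (142 to 738, 2.32) encode neuronal proteins that stabilise messenger RNA, and ELAVL4 passed (limma adjusted p = 0.00899). PTBP1, which represses neuronal splicing, read 11530 and 7974 (-0.53). Over 14 bright genes of this kind, 4 were at least 2-fold higher and 0 lower, against 5.37% and 2.03% of all bright genes. Their median was 0.22, or 0.12 over the 11 bright in both arrays. Of 13 bright ID, HES and proneural factors, 4 were at least 2-fold higher, against the same 5.37%, and 0 lower, with a median of 0.91. ID1, an inhibitor of proneural factors, read 2335 and 9402 (2.01) and was between -0.46 and -0.16 in the other lines (limma adjusted p = 0.0060). ID3 read 606 and 1869 (1.61), HES4 235 and 551 (1.20) and ST18, a zinc finger factor of neurons, 74.7 and 595 (2.87). HES1 read 684 and 686, with its other probe set at -0.39. The antisense transcript ID2-AS1 read 300 and 1476 (2.27, limma adjusted p = 0.033, and 0.085 without SH-SY5Y), and the array's separation of it from its sense partner was not tested.

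REST, the repressor that keeps neuronal genes silent outside neurons, read 1828 and 855 (-1.09), although the mean of all its probe sets gave 0.20. Its main probe set was lower in the other lines too, at -0.35, -0.76 and -0.66, and its difference did not pass (-0.50, limma adjusted p = 0.475). Its bright co-repressors had no member past 2-fold, and the median of all 14 genes was -0.15. The core factors of the adrenergic neuroblastoma state were close to their control level. Of 19 bright ones 2 were at least 2-fold higher, ISL1 (1.02) and ZNF536 (259 to 559.8, 1.09), and 0 lower, with a median of 0.20. HEY1, a Notch target, read 6213 and 11790 (0.92). TFAP2B, a factor of sympathetic precursors that was not bright, read 41.8 and 1.75 (-2.35, limma adjusted p = 0.0128, and 0.145 without SH-SY5Y). Genes of catecholamine synthesis split: DDC, which makes dopamine, read 883 and 1952 (1.14) and DBH, which converts it to noradrenaline, 326 and 577 (0.81), while the noradrenaline transporter SLC6A2 read 710 and 310 (-1.18, with 3 further probe sets between -1.35 and -0.14) and CYB561 of the granule membrane 634 and 257 (-1.28, with 3 further probe sets between -0.63 and -0.01). The list's median of 0.18 became -0.01 with the mean of all probe sets.

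Genes of the response to low oxygen formed the other large group of higher genes. Hypoxia-inducible factors bind a short core motif and switch on glycolysis and blood vessel growth when oxygen is scarce. Of 40 bright genes, 36 were above 0, against 53.4% of all bright genes, 9 were at least 2-fold higher, against 5.37%, and 0 lower, with a median of 0.39. In the other lines the medians were 0.06, -0.00 and -0.04, and 4 of 42 tested genes passed on the higher side, against 0.678% of all genes. ADM, which encodes the vessel-dilating peptide adrenomedullin, read 323 and 3561 (3.43), with ratios of 0.13, 0.10 and -0.17 elsewhere (limma adjusted p = 0.0060). ANKRD37 read 475 and 3561 (2.88, 0.0060), NDRG1 977 and 5041 (2.36, 0.0171), and ANGPTL4, a secreted inhibitor of lipoprotein lipase, 126 and 878 (2.73, 0.0407). NDRG1 (limma adjusted p = 0.0581) and ANGPTL4 (0.0849) no longer passed without SH-SY5Y. The collagen cross-linking enzyme LOX read 259 and 1105 (2.06), the glucose transporter SLC2A3 858 and 3305 (1.94), PFKFB4, a regulator of glycolysis, 642 and 2044 (1.66), P4HA2 852 and 2535 (1.57) and the brain aldolase ALDOC 253 and 758 (1.55). VEGFA, the vascular growth factor, read 3487 and 6164 (0.82). BNIP3L, a mitophagy receptor counted with the pro-apoptotic genes and not in the counts above, read 1404 and 4261 (1.60 and 1.86 in its probe sets, limma adjusted p = 0.0407, and 0.0806 without SH-SY5Y). HIF1A itself read 28671 and 18502 (-0.63), and the glycolytic PFKL 325 and 187 (-0.77).

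Promoters of ANKRD37 and ALDOC are shown for the core motif ACGTG of hypoxia-inducible factors, which is in capitals on either strand. They are from RefSeq (GRCh38.p14), 120 bases each, 5′ to 3′ on the gene's strand. ANKRD37 lies at chr4:185396621-185396740 (plus strand), from 220 to 101 bases before the start site. It holds 3 matches, of which 2 overlap within the run CACGTG. ALDOC lies at chr17:28576896-28577015 (minus strand), the 120 bases up to the start site, with 1 match on the opposite strand.
ANKRD37: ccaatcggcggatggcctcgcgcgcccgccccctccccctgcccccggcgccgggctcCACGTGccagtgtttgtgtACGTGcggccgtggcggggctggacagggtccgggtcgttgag
ALDOC: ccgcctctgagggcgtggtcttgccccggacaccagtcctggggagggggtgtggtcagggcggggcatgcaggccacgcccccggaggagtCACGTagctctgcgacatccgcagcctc
ACGTG was found on either strand of the 300-base window for 24 of the 36 hypoxia and glycolysis genes with a promoter in the table (66.7%), many of which were listed because they are reported targets of these factors. It was found for 33.9% of 8312 bright genes, 31.1% of the 411 higher and 31.0% of the 155 lower genes. LOX and ANGPTL4 also had a match, while ADM, PFKFB4 and P4HA2 had none, and NDRG1 and SLC2A3 had no promoter in the table. The motif is short and common, and a match does not show binding.

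Proliferation genes were lower as a group and mostly by less than 2-fold. All 36 bright genes of mitosis and the spindle checkpoint were below 0, with a median of -0.51, and 32 of 37 bright genes of DNA replication and entry into S phase, with a median of -0.57. The mitosis medians elsewhere were 0.60, -0.10 and 0.23, and those of replication 0.55, -0.09 and 0.16. Of all 9972 bright genes 4647 were below 0, and 2.03% were at least 2-fold lower. In the mitosis list 1 gene was at least 2-fold lower, the proliferation marker MKI67 (1947 to 855, -1.18), whose 4 bright probe sets ran down to it from -0.25. In the replication list 6 were: CDT1, which loads the helicase onto origins (1412 to 444, -1.65), UHRF1 (7092 to 2981, -1.25), the helicase subunit MCM3 (7523 to 3251, -1.21), RFC3 (4471 to 2208, -1.02, with probe sets at -1.49 and -0.34), CDC45 (1303 to 641, -1.01) and PRIM1 (3519 to 1755, -1.0). MCM3 was the only one of 37 tested replication genes to pass (difference -1.31, limma adjusted p = 0.0485, and 0.0734 without SH-SY5Y). Of 35 tested mitosis genes 0 passed. CENPU, a centromere gene outside both lists, also passed (4766 to 2416, -0.98, limma adjusted p = 0.0407, and 0.0764 without SH-SY5Y). The mitotic kinase CDK1 read 14262 and 13205 (-0.11). The kinase CDK6 was at the upper end (9422 to 13334, 0.50), with 2 of its 3 other bright probe sets at 0.58 and 0.62 and the last at -0.22. No direction is given for the cyclin CCND1, whose probe sets were at 0.44 (2358 to 3195) and -0.90. Both medians stayed between -0.60 and -0.48 under every alternative setting tried for NB-39-nu.

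Inhibitors of the cell cycle were higher in part. CDKN1C (2.87) was described above. CDKN1A, which encodes p21, read 2906 and 6862 (1.24) and CDKN2D, which encodes p19, 129 and 473 (1.81). The ratio of CDKN1C was -0.59, 0.37 and -1.50 in the other lines and that of CDKN1A -1.01, 0.53 and -1.76, and neither difference passed (limma adjusted p = 0.0771 and 0.237). CCNG2, a cyclin of resting cells, read 2237 and 4116 (0.88). CDKN2A, the classical BMI1 target, was not bright (121 and 161), nor was CDKN2B (26.4 and 23.5), and both were looked up after their values were seen. Of 9 bright genes that earlier work has reported as repressed by BMI1, all were above 0, against 53.4% of all bright genes. The lowest, KIF1B (0.14), was at -0.21 with the mean of all probe sets. At least 2-fold higher were 3, CDKN1C, ID1 and CDKN1A, against 5.37% of all bright genes, and the list's median was 0.63. The list's medians elsewhere were -0.11, 0.09 and 0.04, and ID1 was the only one of 10 tested to pass. LIN9 (323 to 123, -1.33, but 0.17 with the mean of all probe sets) and E2F5 (1096 to 542, -1.0), regulators of cell cycle transcription, were lower, and the list of inhibitors and RB family genes had a median of -0.19, which became 0.10 at its highest under another setting.

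Target genes of p53 were slightly higher almost without exception. Of 28 bright ones, 27 were above 0, against 53.4% of all bright genes, with a median of 0.42. Only 2 were at least 2-fold higher, a share near the 5.37% of all bright genes, and 0 lower. The medians of the other lines were -0.42, 0.08 and -0.17. Besides CDKN1A the kinase PLK2 was past 2-fold (2945 to 6102, 1.05). FAS, a death receptor, read 216 and 367 (0.74), PPM1D, a phosphatase that dampens p53, 3236 and 5268 (0.70) and the p53 inhibitor MDM4, the gene below 0, 6498 and 4445 (-0.55). None of 29 tested genes passed. Apoptosis genes varied around 0: 27 bright pro-apoptotic genes had a median of 0.20 and 15 anti-apoptotic genes 0.12. BIK, a BH3-only protein, read 24.1 and 278 (3.16) but was at 2.22, -3.05 and -2.92 in the other lines. PMAIP1, which encodes NOXA, read 848 and 1102 (0.37), and survivin, BIRC5, 5776 and 3459 (-0.74, but -0.04 in its next brightest probe set). In the 42 bright genes of the DNA damage response, 27 were below 0 and the median was -0.26. MRE11, which senses breaks, read 927 and 431 (-1.09), CHEK1 2078 and 1076 (-0.94), CHEK2 926 and 539 (-0.77) and LIG4 of end joining 567 and 1019 (0.84). None of the 42 DNA damage genes tested passed the limma test, and of 25 pro-apoptotic genes BNIP3L was the one that did.

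Amino acid supply lay on the lower side, and antioxidant defence only slightly. SLC7A11, the cystine transporter that feeds glutathione synthesis, was the lowest bright gene, at 336 and 26.0 (-3.34). In the other lines SLC7A11 was at -0.06, 2.09 and 0.12, and the difference passed (-4.05, SE 0.70, limma adjusted p = 0.0407, and 0.0742 without SH-SY5Y). This gene is a member of the ATF4, transporter and NRF2 lists below, which therefore overlap. It was the only gene of each list to pass. CHAC1, which degrades glutathione and is switched on by the same stress factor, ATF4, read 244 and 38.1 (-2.45) and was at 0.01, 1.95 and 1.58 elsewhere (limma adjusted p = 0.0771). CBS, an enzyme on the route to cysteine, read 1043 and 473 (-1.13, and -0.45 in its other probe set). Of 37 bright genes of the ATF4 amino acid response 30 were below 0, with a median of -0.31, against -0.02, 0.41 and 0.12 elsewhere. At least 2-fold lower were 3, against 2.03% of all bright genes. Of 16 bright transporters of amino acids and amines 14 were below 0, with a median of -0.45, against 0.05, 0.38 and 0.12 elsewhere. SLC7A5 (1703 to 1077, -0.66) and SLC3A2 (1038 to 665, -0.64), the chains of the large neutral amino acid transporter, were among them. Of 30 bright NRF2 and glutathione genes 23 were below 0 (median -0.17), while the summed signal of the 33 measured was 277041 and 273210. The peroxidase GPX1 (13970.1 to 19634, 0.49) was highest there and GPX4, which guards membrane lipids, was at 0.29 (11208 to 13694). Glycyl-tRNA synthetase GARS1 (9902 to 5615, -0.82) and valyl-tRNA synthetase VARS1 (1901 to 654, -1.53) were lower, the latter outside this list.

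Genes that serve growth followed with smaller values. Of 25 bright MYC-activated genes of metabolism and the nucleolus 21 were below 0, with a median of -0.16 and none past 2-fold. CAD of pyrimidine synthesis (1582 to 861, -0.87) and ODC1 of polyamine synthesis (41353 to 23831, -0.79) were lowest. MXD3, a member of the MAX network, read 343 and 58.8 (-2.39, limma adjusted p = 0.0904). Of 25 bright cholesterol and fatty acid genes 22 were below 0 (median -0.28), with DHCR7 (722 to 344, -1.05) and the LDL receptor regulator MYLIP (505 to 235, -1.08, and -0.41 in its other probe set) at least 2-fold lower. Chaperones of the endoplasmic reticulum CALR (3278 to 1594, -1.04), PDIA4 (6838 to 3952, -0.79) and PDIA6 (13955 to 8395, -0.73) were lower, as was HERPUD1 (5203 to 2444, -1.09), but the unfolded protein list had a median of -0.05. Oxidative phosphorylation had a median of 0.03 over 44 genes, none past 2-fold. All 32 bright ribosomal protein genes were above 0, with a median of 0.15, which became 0.01 under quantile normalization.

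Of 12 bright histone genes 4 were at least 2-fold higher, against 5.37% of all bright genes, and 3 were below 0, the lowest at -0.37. H2AC6 read 186 and 839 (2.13), H2BC21 251 and 1006 (1.97), H2BC5 332 and 1139 (1.76 and 2.13 in its probe sets) and H2BC9 164 and 511 (1.59). The variant gene H2AZ1 was below 0 (34841 to 27835, -0.32), and the summed signal of the 18 measured histone genes went from 60942 to 56780. The 12 bright histone genes had a median of 0.65, and none passed (lowest limma adjusted p 0.0688, for H2AC6). Probe sets of clustered histone genes can read near-identical copies, so the single gene is uncertain.

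Developmental regulators that Polycomb complexes often silence were largely dim. Of 34 measured HOX and other developmental genes 7 were bright, with a median of 0.12, which became -0.19 under another setting. Of 14 tested, TBX3 and HOXC6 passed, the latter named after its values were seen. HOXC6 no longer passed without SH-SY5Y (limma adjusted p = 0.136) or without SK-N-BE (0.0658). TBX3, a T-box factor, read 546 and 2087 (1.92, limma adjusted p = 0.0127), although its other probe sets reached down to 0.56. SOX9, a factor of neural crest, read 1919 and 3754 (0.96, and 0.31 in its other probe set), SOX4 6808 and 12536 (0.88), SOX5 878 and 1608 (0.87) and SOX2 2737 and 3964 (0.53). All 6 bright SOX genes were above 0 (median 0.70), and none was past 2-fold.

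Secreted and matrix genes went both ways. Higher were IGFBP5 (1277 to 5263, 2.04, 1.63 at the least over 3 probe sets) and IGFBP3 (21.7 to 269, 3.22), which bind insulin-like growth factors, with limma adjusted p = 0.00899 and 0.0465. IGFBP3 no longer passed without SH-SY5Y (0.103) or without SK-N-BE (0.114). EDIL3, a matrix protein that binds integrins, had the highest ratio of all bright genes, at 43.3 and 2332 (5.51), and was higher in the other lines too, at 1.51, 0.56 and 1.25 (difference 4.40, SE 0.71, limma adjusted p = 0.033). FRZB, an inhibitor of Wnt signals, read 346 and 1596 (2.18, 0.0407, and 0.103 without SH-SY5Y), FST, which binds activin, 51.2 and 466 (3.0), fibronectin, FN1, 2880 and 6100 (1.08) and LUM 5522 and 14204 (1.36 in both probe sets). Lower were COL1A1 (-2.22), also lower in SH-SY5Y (-3.29) and SK-N-BE (-1.30), the inhibitor of metalloproteases TIMP3 (411 to 132, -1.58 and -3.13) and PCOLCE, which enhances collagen processing (6981 to 2061, -1.76, limma adjusted p = 0.0341, and 0.0849 without SH-SY5Y). The platelet-derived growth factor receptors split, with PDGFRA at 1.72 (372 to 1242) and PDGFRB at -1.81 (380 to 103). The matrix list of 25 bright genes held 5 at least 2-fold higher and 3 lower, with a median of 0.15.

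Feedback regulators of signalling were higher in part. DUSP4 (4746 to 14716, 1.63, with a probe set at 0.84), DUSP6 (142 to 383, 1.39, with a probe set at 0.77) and SPRY4 (234 to 523, 1.13) restrain the MAP kinase pathway. IER3 (5285 to 13127, 1.31) is an early response gene. DUSP1, also an early response gene, was at -0.35 (1197 to 934), while EGR1 was at -0.42 (2635 to 1961) with further probe sets at -0.71 and 0.10. RGS4 (14241 to 32029, 1.17) and RGS2 (1815 to 4376, 1.27), which damp G protein signals, were above 0 in all lines. GNG11, a G protein subunit, read 151 and 320 (1.04, limma adjusted p = 0.0407, and 0.153 without SH-SY5Y). IFI44, an interferon gene, read 138 and 1016 (2.81) amid an interferon list with a median of -0.04. The other genes past 2-fold there were ISG20 (199 to 485, 1.25, and 4.47 in its next brightest probe set) and IRF9 (226 to 476, 1.05).

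Several of the lowest bright genes were lower in other lines as well. ARMC1 read 2953 and 607 (-2.27) and was at -0.41, -0.83 and -1.30 elsewhere. SGPP1 was at -0.84, -1.12 and -1.51 there. BLOC1S6, which helps to build lysosome-related organelles (4073 to 1476, -1.46), was at -0.86, -1.37 and -1.30, and the coat protein SEC23A (5310 to 1846, -1.52, with -0.72 in its other probe set) at -0.79, -1.22 and -1.07. None of these genes passed the test of a difference from the other lines (limma adjusted p from 0.0987 for ARMC1 to 0.639 for BLOC1S6). A p that misses the threshold does not show that the lines responded alike. TMEM123, a cell surface glycoprotein, was the gene bright in both arrays that passed with the smallest p on the lower side. TMEM123 read 6115 and 1548 (-1.98) and was between -0.49 and -0.45 elsewhere (difference -1.50, SE 0.18, limma adjusted p = 0.00899). RASL10B, a small GTPase of the RAS family, read 328 and 45.3 (-2.66, limma adjusted p = 0.0414, and 0.103 without SH-SY5Y) and the mitochondrial chaperone CLPB 506 and 141 (-1.79, 0.0483, and 0.107 without SH-SY5Y).

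**Figure D4:**
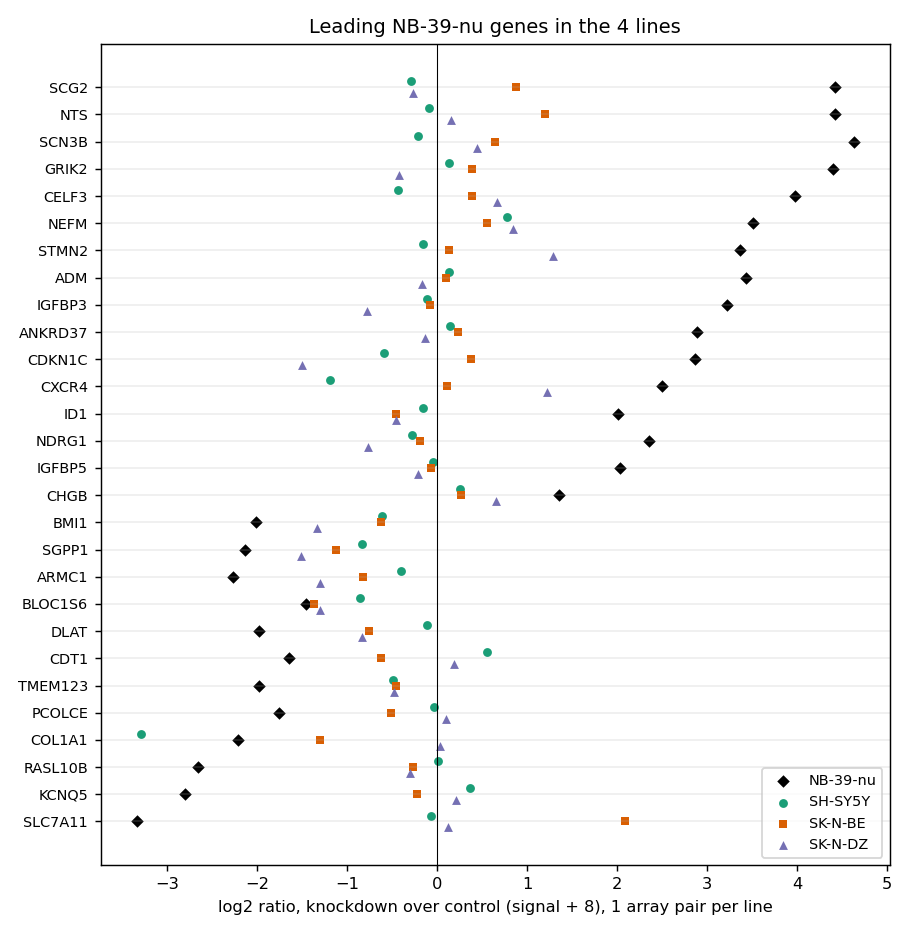
Log2 ratio of knockdown over control (horizontal axis) in each of the 4 lines for 28 leading genes of NB-39-nu, 1 symbol for each line and array pair. For SCG2, CELF3, ADM and ANKRD37 the NB-39-nu diamond stands far from the other 3 symbols, while for SGPP1, ARMC1 and BLOC1S6 all 4 lie below 0.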

How the data were processed

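Total RNA from 2 NB-39-nu cultures and from 6 cultures of 3 further neuroblastoma lines was measured on Affymetrix HG-U133 Plus 2.0 arrays. The deposited values are the authors' linear signal intensities per probe set, made with GCOS and MAS5 according to the submitters' processing notes, which give no version. All 8 arrays had a mean of 500 once the outer 2% on both sides were set aside. The table holds 54675 probe sets, and the platform annotation gives a single gene for 41097, several for 1801 and none for 11777. Symbols came from RefSeq for 41043. The BMI1 probe set, annotated also to a read-through transcript, was used as BMI1. No genome build is needed for the array values, and none is given in the sources used here.

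Log2 ratios used signal + 8, and genes at a signal of 200 in at least 1 NB-39-nu array were described. Genes brighter than the median gene were tested with limma 3.58.1 in R 4.3.3 (lmFit with line and hairpin terms and an interaction for NB-39-nu, eBayes with trend, 2 residual degrees of freedom, Benjamini-Hochberg threshold 0.05), after a check on simulated data. Named genes are BMI1, COMMD3 and MYCN, the ends of the bright genes and of each of 56 lists, list members past 2-fold, genes whose probe sets all passed 2-fold or disagreed, and up to 10 tested genes a side. Genes outside this rule were picked with their values known, and the text says so, apart from those at the edge of a threshold and control transcripts. The NB-39-nu samples, lists and rule were chosen with earlier results of these data known. Alternatives were other pseudocounts, quantile normalization, median centring, other brightness limits, other choices of probe set, fits without trend or with robust eBayes, and leaving out each other line. Testing bright genes only was added after seeing the data. The number of arrays limits the precision.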

Additional observations from a re-analysis of the deposited data

Results flagged for a closer look

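For the genes named here, the change in NB-39-nu differed from the mean change of the 3 other lines by the interaction term of the limma fit at an adjusted p under 0.05. The values are differences of log2 ratios, with 1 array pair in NB-39-nu. Among bright genes with a dim control the differences were 4.40 for EDIL3, 4.38 for ADGRB3-DT, 4.37 for GRIK2, 4.34 for SCN3B, 4.00 for NTS, 3.54 for IGFBP3, 3.0 for CACNA1B, 2.98 for ANGPTL4, 2.80 for NEFL, 2.79 for NEFM, 2.40 for CRMP1, 2.21 for ELAVL4 and 1.42 for GNG11. Among genes bright in both arrays they were 4.31 for SCG2, 3.77 for CELF3, 3.67 for KISS1R, 3.41 for ADM, 2.94 for STMN2, 2.87 for ID2-AS1, 2.80 for ANKRD37, 2.77 for NDRG1, 2.36 for ID1, 2.15 for IGFBP5, 2.10 for ALCAM, 2.05 for PGM2L1, 2.00 for FRZB, 2.00 for PRPH, 1.85 for TBX3, 1.67 for INA, 1.58 for STMN3, 1.56 for BNIP3L, 1.32 for GAP43 and 1.23 for L1CAM. PGM2L1, which encodes an enzyme that makes glucose 1,6-bisphosphate, no longer passed without SH-SY5Y.

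On the lower side the differences were -4.05 for SLC7A11, -2.92 for KCNQ5, -2.47 for RASL10B, -1.93 for CLPB, -1.61 for PCOLCE, -1.50 for TMEM123, -1.49 for CENPU and -1.31 for MCM3. TFAP2B at -2.65, NSG2 at -2.14 and TMEM178B at -1.86 were under a signal of 200 in both NB-39-nu arrays. NSG2 and TMEM178B no longer passed without SH-SY5Y or without SK-N-BE, and TFAP2B no longer passed without SH-SY5Y.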

How the results depend on the processing

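The counts of 2-fold genes (535 higher, 202 lower) followed the brightness limit: 262 genes were higher with a signal of 500 in 1 array, 239 with 200 in both, and 2697 higher and 1454 lower with no limit. Of genes past 2-fold, 72.6% were higher, against 63.4% with 200 in both arrays, 65.7% with 500 and 67.6% after quantile normalization. With the mean of all probe sets, dim ones included, 7 genes past 2-fold changed sign: RAP1A to 0.36, REST to 0.20, LIN9 to 0.17, ATG16L1 to -0.048, TGFB2 to -0.14, NR4A1 to -0.43 and the fibroblast marker ACTA2 to -1.32. The cause was not tested. For 439 genes named by the rule, 148 further alternative values moved by more than 0.41, the SD between probe sets, and 3620 did not. The limma count of 81 (67 higher, 14 lower) was 0 without trend. It was 55 (48, 7) after quantile normalization, 61 (53, 8) with no filter, 32 (29, 3) with a filter at the 75th percentile, 60 (54, 6) with every probe set on its own, 62 (53, 9) with a pseudocount of 1, 106 (85, 21) with 32, and 57 (49, 8) with bright genes only. Leaving out 1 other line gave 31 to 321 genes, 29 to 216 higher and 2 to 105 lower. Every limma fit holds each line's level, so control and knockdown are paired within a line throughout. Genes near background have no calls of presence here, so their ratios are the least certain.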

Other observations

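Probe sets with no single gene add to the picture without names. Of 2640 bright NB-39-nu probe sets annotated to several genes or to none, 158 were at least 2-fold higher and 138 at least 2-fold lower.

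Other lists showed little movement in NB-39-nu apart from single genes. The 11 bright genes of the retinoic acid response had a median of 0.10 and none past 2-fold, with RARB, a receptor that retinoic acid itself switches on, at -0.45 (345 to 251) and MEIS1, a homeobox factor, at 0.57 (3960 to 5890) in one probe set and -0.14 in the other. Lysosome and autophagy genes had a median of 0.18 over 34 bright members, with GABARAPL1, which helps to build autophagosomes, at 1.47 (219 to 620, and 1.04 in its other probe set) and ATG16L1 at 1.14 (121 to 276, but -0.048 with the mean of all probe sets). The 18 bright genes of the mesenchymal neuroblastoma state had a median of 0.06, with FOSL2 at 1.60 (919 to 2811) in 1 probe set and 0.07 in the other, and the receptor AXL at -0.60 (783 to 514). Among Notch and Wnt genes WNT5A read 1558 and 3384 (1.11, and 0.43 in its other probe set), the receptor FZD7 727 and 1600 (1.13, and 0.89) and LGR5 751 and 361 (-1.04). MYOD1, the muscle regulator, read 38.9 and 223 (2.30) and was also above 0 in the other lines, at 1.08, 0.99 and 0.53. The 9 other skeletal muscle markers measured were not bright.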
